A study of Sus scrofa with 6 samples.

Results

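The lymph node of a pig with a biallelic RAG2 knockout was compared with the lymph node of a wild-type littermate by sequencing of total RNA. The comparison covers every listed gene with at least 1 FPKM in either lymph node library, which gave 2910 of 4122 genes. FPKM is the number of fragments of a gene normalised to transcript length and sequencing depth. Both animals were 3 months old, and the series title describes the pigs as carrying the deletion of a single amino acid. Spleen and thymus of the same genotypes were sequenced as well, with 1 library per tissue and genotype and 6 in all, and serve here to show which differences were of the lymph node. The labels state neither the sex of the animals, nor which lymph node was taken, nor whether RNA of several animals was pooled.

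A lymph node filters lymph and is where B cells and T cells meet antigen. RAG2 is a subunit of the recombinase that assembles antigen receptor genes, so animals without its function lack mature B cells and T cells. The organ also holds stromal cells that make homing chemokines, blood and lymphatic vessels, macrophages and, around and within it, fat. Fat cells store fatty acids as triglyceride in droplets coated by perilipins and release them through a chain of lipases. Most cells make cholesterol by the mevalonate pathway, whose genes are controlled together by the cell's sterol content.

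Each group was 1 library, so no difference in the lymph node has a replicate check and no test was made. Calls rest on size. After 1 FPKM was added to both values, the knockout was divided by the wild type, and a log2 of this ratio of 1 or more makes a gene higher and one of -1 or less makes it lower. Fragments scaled by library give the folds, whose 95% intervals (Clopper-Pearson) cover counting error only. A gene with 0 fragments in a library has its fold given against a floor of 3 fragments in that library. Such a fold is no strict lower bound, and the 95% lower limit of counting given beside it is smaller. Where a gene has a pair of values, the wild-type library comes first. In whole tissue, fewer cells of a type and less RNA per cell cannot be told apart.

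The wild-type library held 1922563 fragments of listed genes and the knockout library 2021583, and the 10 genes with the most fragments took 14.5% and 15.5% of them. In the knockout 446 genes were called higher (15.3%) and 299 lower (10.3%), and the median log2 ratio of all measured genes was -0.0046. With a counting interval that left out equal levels, 382 were higher (13.1%) and 258 lower (8.87%). Of the 745 called genes, 117 had fewer than 10 fragments in both libraries. The 105 genes with a mean of at least 1000 FPKM and at least 10 fragments had a median log2 ratio of -0.52, against 0.01 for the 1486 genes with a mean between 10 and 100 FPKM.

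The libraries also differed in a gene of the Y chromosome. EIF1AY, the Y-linked copy of a translation initiation factor (chromosome Y, 9687350 to 9704489 in Sscrofa11.1), had 0 fragments in the lymph node of the wild type and 209 in that of the knockout. It had 0 and 194 fragments in spleen and 1 and 597 in thymus. Its X-linked partner EIF1AX stood at 1655 and 1626 fragments in the lymph node, and the Y-linked SRY had 0 fragments in all 6 libraries. All 3 knockout libraries thus carried EIF1AY transcripts and the wild-type libraries 0 or 1 fragment. Sex and genotype cannot be told apart for any value below.

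RAG2 (chromosome 2, 24547605 to 24553944) had 0 fragments in wild type and 5 in the knockout, too few for a fold, and its transcript level is no check of the genotype. RAG1, listed as RAG-1, had 11 and 91 fragments, at 1.27 and 10.1 FPKM. Both libraries held transcripts of stromal chemokines. CCL21, which draws T cells and dendritic cells through the vessel wall, stood at 2438 and 1754 FPKM in wild type and knockout, and CCL19, which binds the same receptor, at 2163 and 2589 FPKM. CXCL12 stood at 2320 and 1774 FPKM, and PROX1, the regulator of lymphatic vessel identity, at 31.8 and 80.2 FPKM.

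Among markers of cell types, all 6 measured B-cell genes were called lower (median log2 ratio -6.79), as were 9 of 10 T-cell genes (median -3.51). The T-cell gene that was not called was the interleukin receptor IL7R (112 and 90.4 FPKM). All 11 measured fat-cell markers were higher (median 3.81), and their summed level was 445 and 11599 FPKM. Blood vessel markers were higher in 3 of 7 cases and macrophage markers in 3 of 9, with 0 lower in either list. Log2 ratios were under 0 for 1 of the vessel markers and 2 of the macrophage markers. All marker counts stand beside 15.3% higher and 10.3% lower among all measured genes. The red-cell gene HBB stood at 376 and 6738 FPKM, and the skeletal muscle markers that were measured, ACTA1 and MYL1, stayed at or below 1.01 FPKM in both libraries. All 11 fat-cell, 4 of 5 neutrophil and 5 of 7 smooth muscle markers were higher in the same library as the lipid genes below. Many fat-cell markers, among them PLIN1, CIDEC, LIPE, PNPLA2, AQP7, LPL and CD36, are themselves members of the lipid lists. Their direction is therefore not a separate observation. RETN, counted here as a neutrophil marker, also sits in the adipokine list. The other neutrophil marker, MMP9, was called lower, on 190 and 19 fragments. The part of these cell types in the lipid values was not tested.

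**Figure D1:**
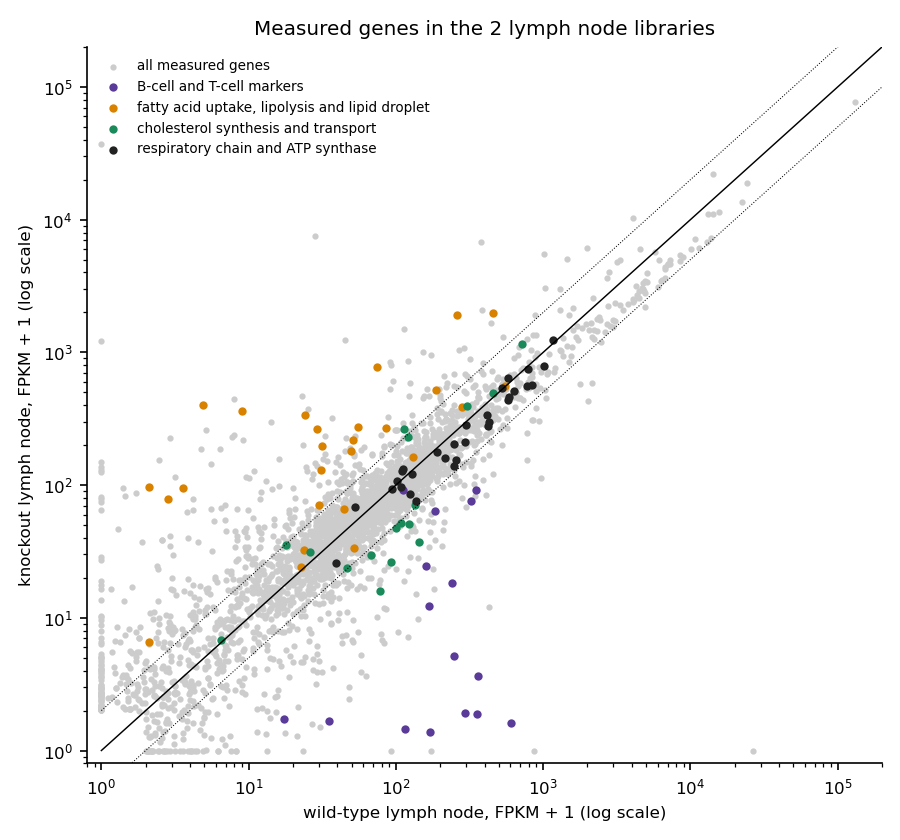
Each point is 1 of the 2910 measured genes, with FPKM + 1 in the wild-type lymph node on the horizontal and in the knockout lymph node on the vertical axis, both on log scales; the solid line marks equal levels and the dotted lines a ratio of 2 in either direction. The B-cell and T-cell markers lie under the line, most genes of fatty acid uptake and lipid droplets lie above it, and the 30 respiratory chain genes stay between the dotted lines.

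The 39 pathway lists hold 536 measured genes, of which 139 were higher and 50 lower, or 25.9% and 9.33% of them, beside 15.3% and 10.3% of all measured genes. More members were higher than lower in 26 lists and more lower than higher in 7. The other 6 lists had equal numbers, 4 of them with 0 called genes. The lists were chosen with earlier results of these data known, and some genes, such as HSD17B4, sit in several lists. These shares and counts therefore describe the chosen lists and are no independent check. List counts given below stand beside the same 15.3% and 10.3% of all measured genes. Lipolysis and lipid droplet genes had the highest median, which is shown with every other list in the plot of list members. The lists with the lowest medians were serine, folate and nucleotide synthesis, cholesterol, antigen receptor signalling and the TNF superfamily.

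**Figure D2:**
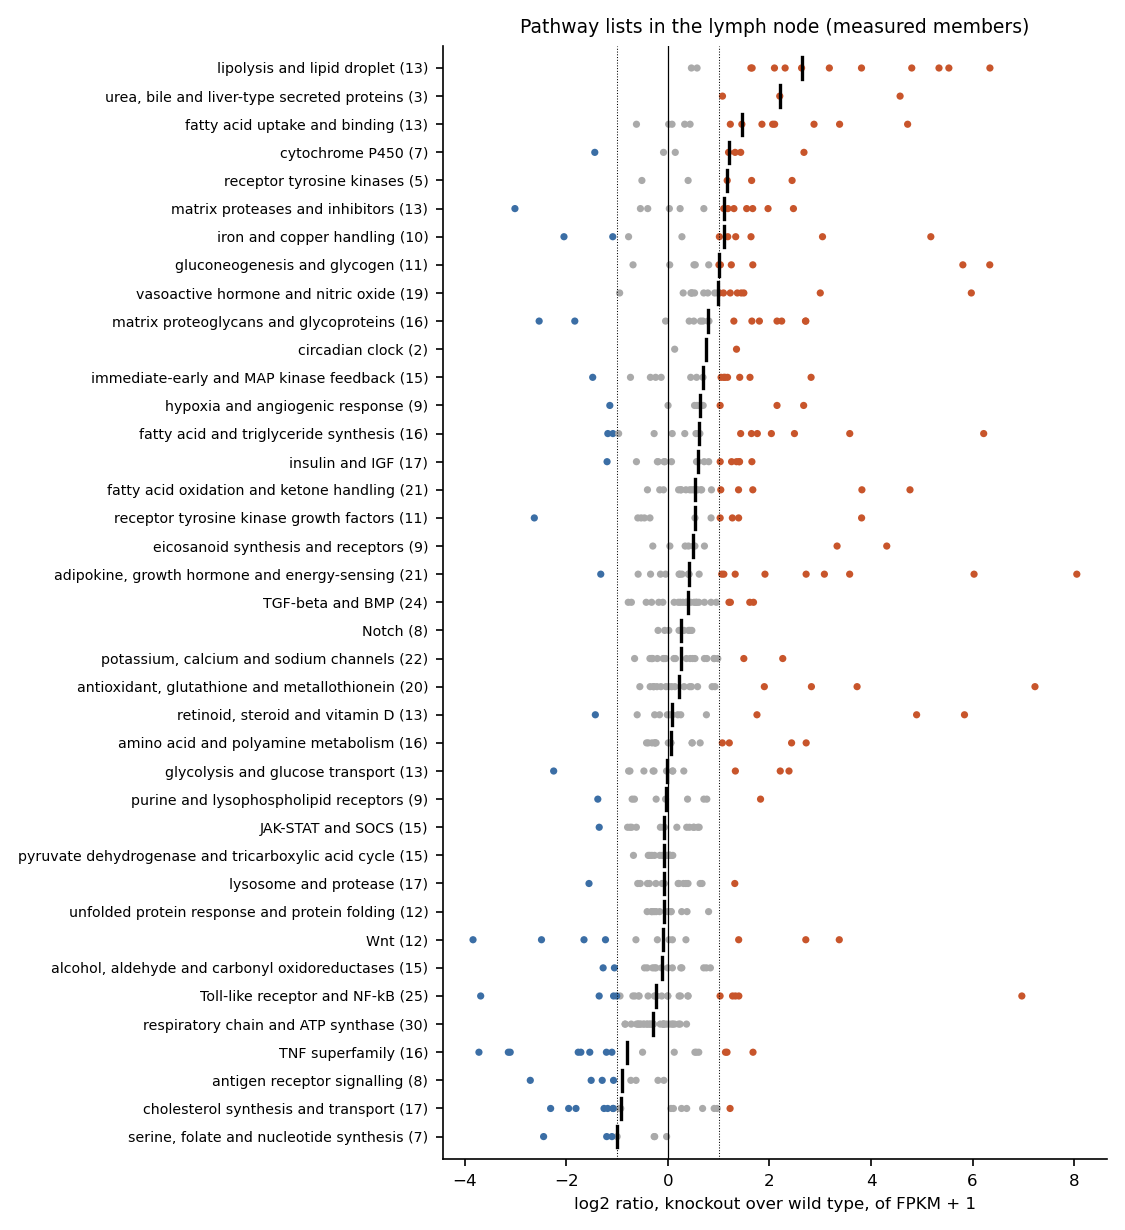
Each point is a measured gene of a pathway list, placed by its log2 ratio of knockout over wild type in the lymph node (FPKM + 1), with the number of measured members in brackets; orange marks called higher, blue called lower, grey not called, and the black bar the list's median. Lists run from lipolysis and lipid droplet (median 2.63) at the top to serine, folate and nucleotide synthesis (median -0.999) at the bottom, and the dotted lines mark the size needed for a call.

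Of 13 measured genes for the uptake and binding of fatty acids 8 were called higher and 0 lower (median 1.46). Lipoprotein lipase, LPL, which frees fatty acids from circulating lipoproteins, stood at 73.3 and 773 FPKM, an 11.4-fold difference (6.48 to 21.9) on 13 and 155 fragments. GPIHBP1, which holds this lipase on the capillary wall, stood at 2.60 and 94.0 FPKM, from 4 to 153 fragments. The membrane transporter CD36 stood at 260.2 and 1920 FPKM, a 7.40-fold difference (7.03 to 7.79). Binding proteins inside the cell followed with smaller ratios, FABP5 at 456 and 1963 FPKM and FABP3 at 48.8 and 179 FPKM. Among the ligases that attach coenzyme A to a fatty acid, ACSL1 was called higher at 29.9 and 128 FPKM. Its relatives ACSL4 (129 and 163 FPKM), ACSL5 (22.9 and 31.4 FPKM) and ACSL3 (50.9 and 32.8 FPKM) were not called, and ACSL3 had the lower value in the knockout.

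Several genes that turn fatty acids into triglyceride were higher as well, while the desaturases SCD and FADS2 were lower. GPD1, which makes the glycerol backbone, stood at 8.67 and 115 FPKM (13.3-fold, 9.01 to 20.5). The acyltransferases AGPAT1 and AGPAT2 stood at 23.4 and 136 FPKM and at 13.8 and 49.1 FPKM. For the last step DGAT2 had 0 fragments in wild type and 36 in the knockout, at least 11.5-fold higher, whereas the other enzyme of that step, DGAT1 (listed as DGAT), stood at 12.1 and 18.3 FPKM and was not called. SCD, which makes monounsaturated fatty acids, stood at 63.9 and 29.6 FPKM (2.15-fold lower, 1.92 to 2.41), and FADS2, which acts on polyunsaturated ones, at 149 and 65.2 FPKM (2.28-fold lower, 1.96 to 2.65). The neighbouring FADS1 was just short of a call at 79.1 and 39.9 FPKM (log2 ratio -0.97). Fatty acid synthase, FASN, at 125 and 194 FPKM, and ATP citrate lyase, ACLY, at 120 and 99.5 FPKM, were not called. In all 7 of 16 members of the synthesis list were higher and 2 lower (median 0.62).

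Every step of triglyceride breakdown had a called gene. Of 13 measured members of the lipolysis and lipid droplet list 11 were higher and 0 lower (median 2.63). The coat protein PLIN1 (chromosome 7, 55237517 to 55250797) stood at 3.93 and 399 FPKM (102-fold, 62.6 to 179), and CIDEA, which fuses droplets, at 7.99 and 363 FPKM (45.8-fold, 28.8 to 77.7). The 3 lipases that act in turn, PNPLA2, LIPE and MGLL, stood at 28.3 and 265 FPKM, 23.1 and 338 FPKM, and 49.9 and 217 FPKM. ABHD5, the activator of the first of them, stood at 30.7 and 195 FPKM, and AQP7, the channel through which glycerol leaves, at 1.84 and 78.2 FPKM. PLIN2, the coat protein that cells other than fat cells also carry, had a smaller ratio (53.9 and 271 FPKM, log2 2.31), and the lysosomal lipase LIPA was not called (279 and 385 FPKM). HCAR1, the lactate receptor that restrains lipolysis, had 1 and 242 fragments.

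Burning of fatty acids showed a narrower pattern, with 5 of 21 members higher, 0 lower and a median of 0.53. Among all measured genes 15.3% were higher and 10.3% lower. PDK4 (chromosome 9, 75246956 to 75260134), the kinase that shuts off pyruvate dehydrogenase when fat is the fuel, stood at 44.5 and 1239 FPKM, a 27.9-fold difference (25.4 to 30.8) on 438 and 12774 fragments. CPT1A, the gate for fatty acids into the mitochondrion, stood at 51.3 and 166 FPKM, and OXCT1, which activates ketone bodies, at 112 and 294 FPKM. The mitochondrial carrier UCP3 had 1 and 98 fragments, while its neighbour UCP2 stood at 71.4 and 63.8 FPKM. The enzymes of the oxidation cycle itself did not pass the size for a call: HADHA stood at 200.2 and 364 FPKM, ACADM at 103 and 123 FPKM and ACADS at 102 and 96.1 FPKM.

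The central mitochondrial machinery had no called gene, though most respiratory genes had the lower value in the knockout. None of the 15 genes of pyruvate dehydrogenase and the tricarboxylic acid cycle was called (median -0.07), nor any of the 30 of the respiratory chain and ATP synthase (median -0.30). Log2 ratios in the respiratory list ran from -0.84 for NDUFC1 and ATP5L to 0.37 for NDUFAF3. They were under 0 for 23 of the 30 genes and above 0 for 7, and the summed level was 11488.5 and 9639 FPKM. PDK1, a relative of PDK4 with the same substrate, stood at 131 and 81.7 FPKM and was not called.

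Gluconeogenesis genes that also feed glycerol synthesis were among the highest ratios of the comparison. PCK1 had 0 fragments in wild type and 591 in the knockout, at least 188-fold higher, and its mitochondrial counterpart PCK2 stood at 16.3 and 9.78 FPKM. Pyruvate carboxylase, PC, stood at 6.91 and 443 FPKM (64.5-fold, 40.1 to 111). Of 11 members of the gluconeogenesis and glycogen list 6 were higher and 0 lower (median 1.01), and 3 were higher with a pseudocount of 5 FPKM. The glycolysis list was mixed, with 3 of 13 higher, 1 lower and a median of -0.03, beside 15.3% and 10.3% of all measured genes. Its isozymes parted. Hexokinase HK2 stood at 2.21 and 13.9 FPKM and HK1 at 169 and 181 FPKM. Aldolase ALDOC stood at 32.0 and 172 FPKM, the mutase PGAM2 at 23.1 and 4.08 FPKM, and the lactate dehydrogenase LDHA at 337 and 200.2 FPKM, short of a call.

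Of 17 measured members of the cholesterol list 7 were called lower and 1 higher (median -0.93). HMGCS1, an early enzyme of the pathway, stood at 143 and 36.1 FPKM (3.94-fold lower, 3.48 to 4.49). SQLE (chromosome 4, 14669789 to 14700152), which adds the first oxygen to squalene, stood at 77.4 and 14.8 FPKM (5.21-fold lower, 4.22 to 6.47). FDPS, MSMO1 and the sterol sensor partner INSIG1 were lower by log2 values of -1.08, -1.26 and -1.19. The demethylase CYP51, counted in the cytochrome P450 list, stood at 129.6 and 47.2 FPKM. FDFT1 (-0.93) was just under the size for a call. The 8 members with a log2 ratio above 0 all carry or move cholesterol or control its export: APOA1, at 112 and 264 FPKM, was called higher, and APOE (718 and 1155 FPKM) and NR1H3 (121 and 228 FPKM) were not. In the thymus 6 of 17 members were lower and 3 higher, with SQLE at -2.61, and in the spleen 2 of 18 were lower. Of all genes measured in thymus 10.9% were lower and 15.2% higher, and in spleen 10% were lower.

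**Figure D3:**
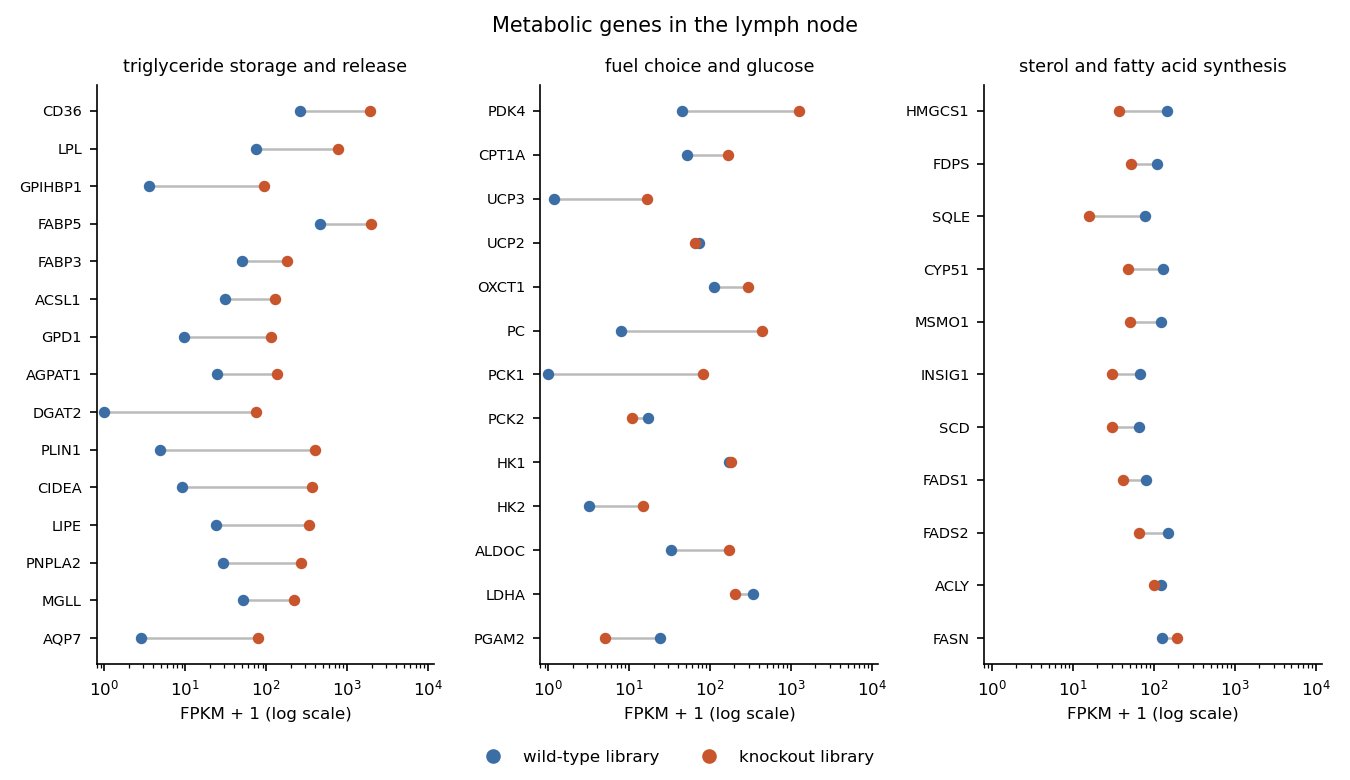
Levels of single genes in the wild-type (blue) and knockout (orange) lymph node library as FPKM + 1 on a log scale, for triglyceride storage and release, fuel choice and glucose, and sterol and fatty acid synthesis; each line joins the values of 1 gene. All 15 genes of the left panel are higher in the knockout. In the right panel 10 of the 11 are lower and FASN is higher. The genes were picked from their lists, so these tallies hold for the panels only. Genes not drawn include ACSL3, lower in the knockout, the uncalled ACSL4 and LIPA, and APOA1 of the cholesterol list, called higher.

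In the list of serine, folate and nucleotide synthesis 3 of 7 measured members were lower and 0 higher (median -0.999). In spleen 1 of 7 was lower (median 0.17), beside 10% of all genes measured there. PHGDH, the first enzyme of serine synthesis, stood at 28.2 and 4.35 FPKM (6.45-fold lower, 4.14 to 10.5). The nucleotide kinase NME1 stood at 81.9 and 37.6 FPKM. In amino acid metabolism 4 of 16 were higher and 0 lower (median 0.06), beside 15.3% and 10.3% of all measured genes. Glutamine synthetase, GLUL, stood at 386 and 2096 FPKM (5.45-fold, 5.14 to 5.79), and BCKDHA, a subunit of the complex that breaks down branched-chain amino acids, at 56.1 and 131 FPKM. Arginase ARG1 rested on 1 and 28 fragments.

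Protection against oxidants was uneven. Of 20 measured members 4 were higher and 0 lower (median 0.23), not far from the 15.3% of all measured genes that were higher. The metallothionein MT1A, which binds zinc and copper, had 0 and 92 fragments (at least 29.3-fold higher). The secreted peroxidase GPX3 stood at 113 and 1511 FPKM (13.4-fold, 12.2 to 14.8), mitochondrial superoxide dismutase SOD2 at 120.1 and 859 FPKM, and catalase CAT at 289 and 1082 FPKM. Cytosolic SOD1 stood at 504 and 491 FPKM. The peroxiredoxins PRDX2, PRDX3, PRDX5 and PRDX6 had log2 ratios between -0.55 and -0.21 and were not called. Of 10 iron and copper genes 6 were higher and 2 lower, or 5 and 1 with the counting interval. Ferritin light chain FTL stood at 4055 and 10240.3 FPKM and heavy chain FTH1 at 1976 and 6152 FPKM, while the transferrin receptor TFRC stood at 78.7 and 36.6 FPKM. The copper carrier CP had 3 and 491 fragments. HBB was higher in the same library.

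Of 7 cytochrome P450 genes 4 were higher and 1 lower (median 1.196, or 0.94 with genes at 0 fragments placed at the floor). With a pseudocount of 5 FPKM 1 was higher and 1 lower (median 0.42), and a minimum of 5 FPKM gave a median of 0.15. CYP2B22 led with 36 and 276 fragments. Of the alcohol, aldehyde and carbonyl oxidoreductases 2 of 15 were lower, both on fewer than 10 fragments. The retinol carrier RBP4 had 1 and 192 fragments, and the receptor RXRG 3 and 23. The oestrogen receptor ESR1 had a log2 ratio of 4.90 in FPKM but 9 and 26 fragments, a 2.76-fold difference (1.25 to 6.70). The FPKM ratio of ESR1 was far above its fragment ratio, and the same held at 10 or more fragments in both libraries for CDH13 (111 and 306 fragments), SLC6A8 (25 and 95) and TRPC1 (47 and 89). Enzymes of prostaglandin synthesis were not called, among them PTGS2 (8.58 and 12.9 FPKM) and PTGES (37.8 and 38.9 FPKM). The prostaglandin receptors PTGER3, which lowers cyclic AMP, and PTGFR were higher, from 4 to 172 and from 0 to 33 fragments.

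Part of the hormone signalling genes of fat and liver were higher. In the adipokine and growth hormone list 9 of 21 were higher and 1 lower (median 0.42). ADIPOQ, the fat-cell hormone adiponectin, stood at 27.2 and 7483 FPKM and was the 10th most abundant gene of the knockout library by FPKM. Its receptors parted: ADIPOR2 stood at 38.4 and 147 FPKM (3.86-fold, 3.13 to 4.80) and ADIPOR1 at 66.0 and 88.5 FPKM, which is not a call. The growth hormone receptor GHR stood at 22.5 and 198 FPKM (8.83-fold, 7.28 to 10.8), and the adrenaline receptor ADRB1 at 2.02 and 18.9 FPKM. The related ADRA1A was lower, on 22 and 7 fragments. In the insulin and IGF list 6 of 17 were higher and 1 lower (median 0.59). They include the insulin receptor substrate IRS1 (10.1 and 27.3 FPKM), the transcription factor FOXO3 (52.1 and 140.3 FPKM) and the binding proteins IGFBP4 (222 and 589 FPKM) and IGFBP5 (199.8 and 478 FPKM). FOXO1, a relative of FOXO3, stood at 119 and 104 FPKM. The acid-labile subunit IGFALS was lower on 20 and 6 fragments.

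Of 19 vasoactive genes 8 were higher and 0 lower (median 0.98, or 0.92 with genes at 0 fragments placed at the floor). The vasoconstrictor endothelin EDN1 and its receptor EDNRA stood at 6.59 and 20.4 FPKM and at 24.2 and 58.2 FPKM, and the second receptor EDNRB at 84.1 and 146 FPKM, under the size for a call. Both nitric oxide synthases of the list were higher, NOS3 of the endothelium at 24.4 and 53.2 FPKM and the inducible NOS2 at 6.03 and 18.1 FPKM. With a pseudocount of 5 FPKM 5 of the 19 were higher. In the same library 5 of 7 smooth muscle markers and 3 of 7 blood vessel markers, NOS3 among them, were higher. The part of these cell types in the vasoactive values was not tested.

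Wnt signalling genes went both ways, with 3 of 12 higher and 4 lower (median -0.09). LEF1, the transcription factor at the end of the pathway that T cells also use, stood at 139.6 and 8.84 FPKM (15.8-fold lower, 12.1 to 20.9). The ligand WNT4 stood at 17.0 and 4.73 FPKM. Secreted inhibitors were split. SFRP2 stood at 10.9 and 77.2 FPKM (7.11-fold higher, 5.39 to 9.52) and DKK3, a relative of the inhibitor DKK1, at 5.45 and 66.0 FPKM (12.1-fold higher, 8.59 to 17.6). FRZB stood at 34.3 and 14.1 FPKM, DKK1 had 19 and 2 fragments, and SFRP5 was not called at 31.1 and 40.1 FPKM. The core components CTNNB1, APC and GSK3B had log2 ratios of 0.02, 0.09 and -0.21.

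In the TGF-beta and BMP list 4 of 24 members were higher and 0 lower (median 0.41), near the 15.3% of all measured genes that were higher. They are the ligand BMP6 (8 and 37 fragments), the ligand trap FST (21 and 73), the receptor ACVR2A (67 and 171) and the coreceptor TGFBR3 at 127 and 295 FPKM. TGFB1 itself stood at 213 and 123 FPKM and was not called. None of 8 Notch genes was called. Growth factor receptors were higher in 3 of 5 cases: FGFR2 on 4 and 36 fragments, the receptor AXL that recognises dying cells at 57.3 and 182 FPKM, and KIT at 45.5 and 104 FPKM. Among growth factors, pleiotrophin, listed as PTF-BETA, had 4 and 88 fragments, and its relative midkine, MDK, stood at 128 and 339 FPKM.

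Of 15 immediate-early genes 7 were higher and 1 lower (median 0.69). FOS stood at 32.0 and 232 FPKM (7.30-fold, 5.85 to 9.20) and its partner JUN, listed as C-JUN, at 79.6 and 175 FPKM. MYC was lower, at 125 and 44.3 FPKM (2.82-fold, 2.47 to 3.23). With a pseudocount of 5 FPKM the list had 4 higher members and 1 lower. The oxygen-sensing factors parted as well. HIF1A stood at 323 and 146 FPKM (2.21-fold lower, 2.06 to 2.37), and its relative EPAS1 at 247 and 399.9 FPKM, which is not a call. ANGPTL4, an inhibitor of lipoprotein lipase, had 455 and 3075 fragments, and VEGFA, the vessel growth factor, at 80.1 and 165 FPKM.

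Toll-like receptors, which sense microbial products, differed in direction. TLR10, TLR2, TLR1 and TLR9 were lower. TLR10, which B cells carry, stood at 82.4 and 5.48 FPKM (15.01-fold lower, 11.09 to 20.8) and TLR2 at 127 and 49.1 FPKM (2.58-fold, 2.28 to 2.92). TLR3, TLR5 and TLR8 were higher, at 17.6 and 45.7 FPKM, 9.58 and 26.9 FPKM, and 42.0 and 103 FPKM. TLR4 (112 and 134 FPKM), TLR6 (32.5 and 19.8 FPKM) and TLR7 (82.5 and 42.5 FPKM) were not called. The shared adaptor MYD88 stood at 61.1 and 80.6 FPKM. The whole list had 5 of 25 higher and 4 lower (median -0.23), or 4 and 2 with a pseudocount of 5 FPKM. Shares among all measured genes were 15.3% higher and 10.3% lower. Among those higher, NOD1 rested on 0 and 7 fragments.

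The TNF superfamily, which carries signals between lymphocytes and stroma, was lower in 8 of 16 cases and higher in 3 (median -0.80), or in 5 and 2 with a pseudocount of 5 FPKM. CD27, a costimulatory receptor, stood at 102 and 6.82 FPKM (14.8-fold lower, 8.26 to 29.2), and CD40LG, with which helper T cells reach B cells, had 64 and 6 fragments. Its receptor CD40 stood at 184 and 62.9 FPKM. Lymphotoxin LTB stood at 968 and 112 FPKM (8.60-fold lower, 7.55 to 9.83), whereas its receptor LTBR, found on stroma, stood at 58.7 and 130.0 FPKM (2.22-fold higher, 1.95 to 2.54). TNF itself stood at 13.6 and 14.9 FPKM. In antigen receptor signalling 4 of 8 were lower and 0 higher (median -0.90). The kinase LCK stood at 160 and 23.6 FPKM and SYK, which serves the B-cell receptor, at 172 and 59.9 FPKM, while FYN, a relative of LCK, stood at 153 and 145 FPKM. In the JAK-STAT list STAT4 was lower, at 46.4 and 17.6 FPKM, and the other 14 members were not called (list median -0.07).

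**Figure D4:**
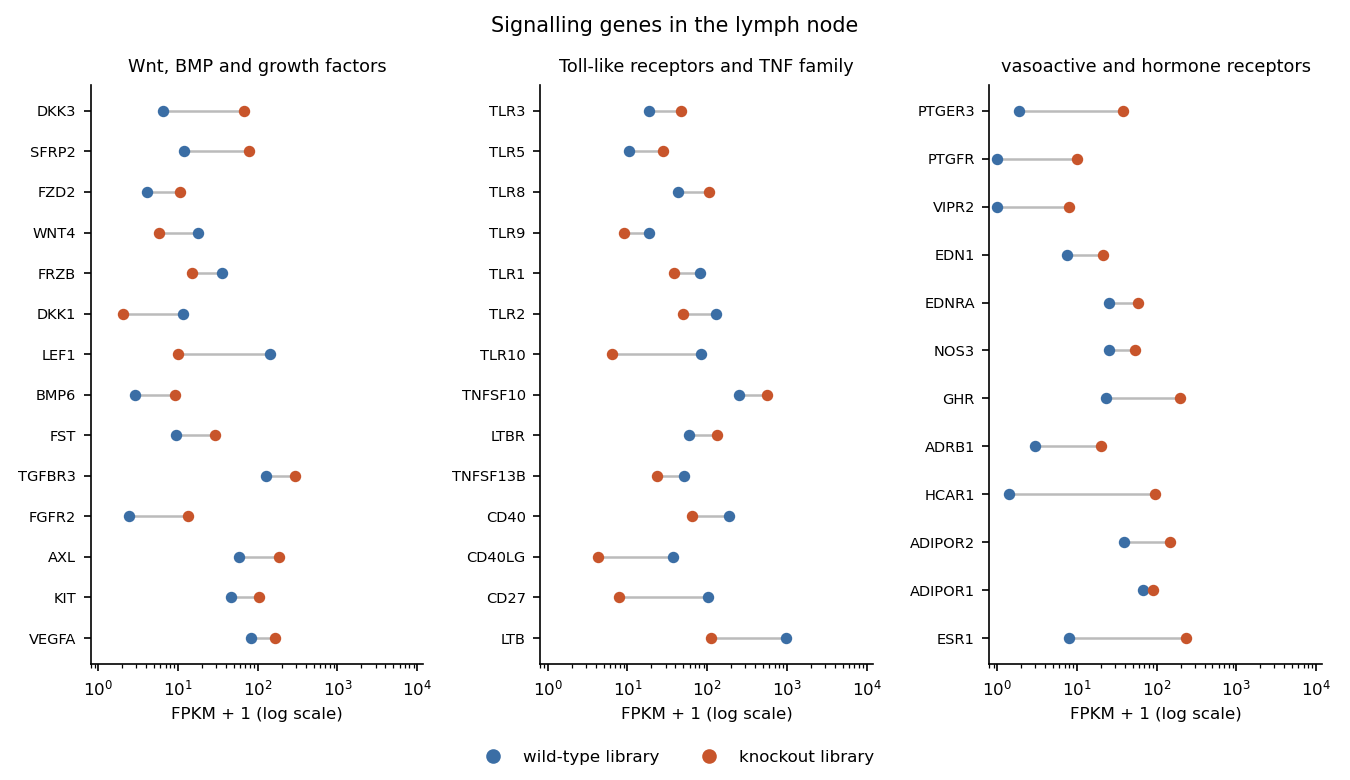
Levels of single signalling genes in the wild-type (blue) and knockout (orange) lymph node library as FPKM + 1 on a log scale; each line joins the values of 1 gene. Within the Wnt genes, the Toll-like receptors and the TNF family some members are higher and others lower in the knockout, with LEF1, TLR10 and CD27 among the lowest ratios and DKK3 among the highest.

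Matrix genes were called higher more often than lower. Among proteases and their inhibitors 7 of 13 were higher and 1 lower (median 1.10). The gelatinase MMP2 stood at 171 and 957 FPKM (5.59-fold, 5.28 to 5.93), and the other gelatinase, MMP9, at 30.6 and 2.92 FPKM (10.5-fold lower, 6.51 to 17.7). MMP14, which activates MMP2, stood at 197 and 449 FPKM, and the inhibitors TIMP1 and TIMP2 at 47.8 and 191 FPKM and at 200.5 and 431 FPKM. Among proteoglycans and glycoproteins 7 of 16 were higher and 2 lower (median 0.80). Decorin, DCN, which coats collagen fibrils, stood at 152 and 1008 FPKM, SPARCL1 at 123 and 587 FPKM and the calcification inhibitor MGP at 1449 and 5056 FPKM. CCN2, the connective tissue growth factor, stood at 86.8 and 23.7 FPKM, and aggrecan, ACAN, had 130 and 6 fragments. Lumican, LUM, a relative of decorin, was not called at 160 and 251 FPKM.

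In the unfolded protein response 0 of 12 were called (median -0.08), and XBP1, the factor that plasma cells need, stood at 390.3 and 681 FPKM. In the lysosome list CTSL was higher (217 and 544 FPKM) and 1 of 17 lower, on 1 fragment. Channel genes were higher in 2 of 22 cases (median 0.26), beside 15.3% of all measured genes, with CLIC5 on 18 and 70 fragments. Lysophospholipid receptors parted, LPAR2 from 8 to 41 and LPAR3 from 15 to 3 fragments, in a list of 9 with a median of -0.05. All 3 measured members of the liver-type secreted list were higher, or 2 with the counting interval and 1 with a pseudocount of 5 FPKM. The matrix stabiliser ITIH3 stood at 8.13 and 216 FPKM (26.7-fold, 20.7 to 34.9).

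Of the genes with the largest ratios, those on at least 10 fragments and 5 FPKM in a library, the 15 highest comprised fat-cell and lipid genes named above and a few others. Among the others MYOC, an extracellular protein of the eye that other tissues also make, had 11 and 1350 fragments, and the membrane carbonic anhydrase CA4 had 2 and 255. The adipogenic factor adipogenin, listed as SMAF1, had 0 and 31 fragments, and the glucose transporter regulator TUSC5 0 and 182. The 15 lowest were led by the B-cell receptor chain CD79B, from 1891 to 2 fragments. Outside the B-cell and T-cell lists they included DAPL1, with 172 and 0 fragments, and the peptide transporter SLC15A2, with 279 and 9 fragments. OAZ3, an inhibitor of polyamine synthesis, had 57 and 1.

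The other tissues shared part of these calls. In spleen 253 genes were higher (8.88%) and 286 lower (10%), and in thymus 441 were higher (15.2%) and 317 lower (10.9%). Of the genes higher in the lymph node 98 were also higher in spleen (22.0% of the lymph node calls and 38.7% of those in spleen) and 199 in thymus (44.6% and 45.1%), while 49 were lower in spleen and 27 lower in thymus. Of the genes lower in the lymph node 85 were lower in spleen (28.4% and 29.7%) and 103 in thymus (34.4% and 32.5%), while 11 were higher in spleen and 16 higher in thymus. Both other tissues shared 51 higher and 38 lower calls. Among the fat genes, PLIN1 had a log2 ratio of 2.74 in thymus and -0.78 in spleen, the latter short of a call, and PDK4 was higher in both (6.07 and 1.30). CD36 stood at 2.69 in thymus and -0.09 in spleen. These libraries come from 1 wild-type and 1 knockout genotype each, and whether the tissues of a genotype came from the same animal is not stated.

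A set of genes was called in the lymph node and had log2 ratios under 0.5 in size in spleen and thymus. Of 2671 genes measured in all 3 tissues, 33 were higher in this way (1.24%) and 25 lower (0.936%). With a limit of 1 in spleen and thymus, 87 were higher and 99 lower. The difference between tissues was not tested. LPL led the higher genes, with log2 ratios of 3.38 in lymph node, -0.34 in spleen and -0.12 in thymus. The actin-associated PALMD (3.00 in lymph node), FOS (2.82), the neuropeptide receptor ADCYAP1R1 (2.08) and ADIPOR2 (1.91) followed. Tissue factor F3, the trigger of clotting, stood at 17.8 and 60.5 FPKM, and the thrombin receptor F2R at 51.0 and 171 FPKM. ANXA2, a membrane protein that binds plasminogen activator, stood at 247 and 685 FPKM. The smooth muscle actin ACTA2 (301 and 658 FPKM) belongs to the same set.

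The 25 lower genes of this set include CDK1, the kinase that starts mitosis. It stood at 56.9 and 4.21 FPKM (13.4-fold lower, 7.80 to 25.1), and its activator CDC25B and the spindle kinase AURKA at 80.2 and 29.6 FPKM and at 20.3 and 7.27 FPKM. CDK1 had log2 ratios of -0.19 in spleen and -0.48 in thymus, and AURKA of -0.09 and -0.4999, so both lay just inside the limit in thymus. RASGRP2, an activator of integrins in lymphocytes and platelets, stood at 166 and 32.9 FPKM (5.02-fold lower, 4.30 to 5.89), and the GTPase RHOH of blood cells at 171 and 43.5 FPKM. CD55 (chromosome 9, 67933069 to 67960380), which protects cells from complement, stood at 98.7 and 22.1 FPKM (4.44-fold lower, 3.63 to 5.47), with log2 ratios of 0.01 in spleen and 0.11 in thymus. SYK, HIF1A and SCD also belong to this set. The chloride channel CFTR had 49 and 4 fragments.

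**Figure D5:**
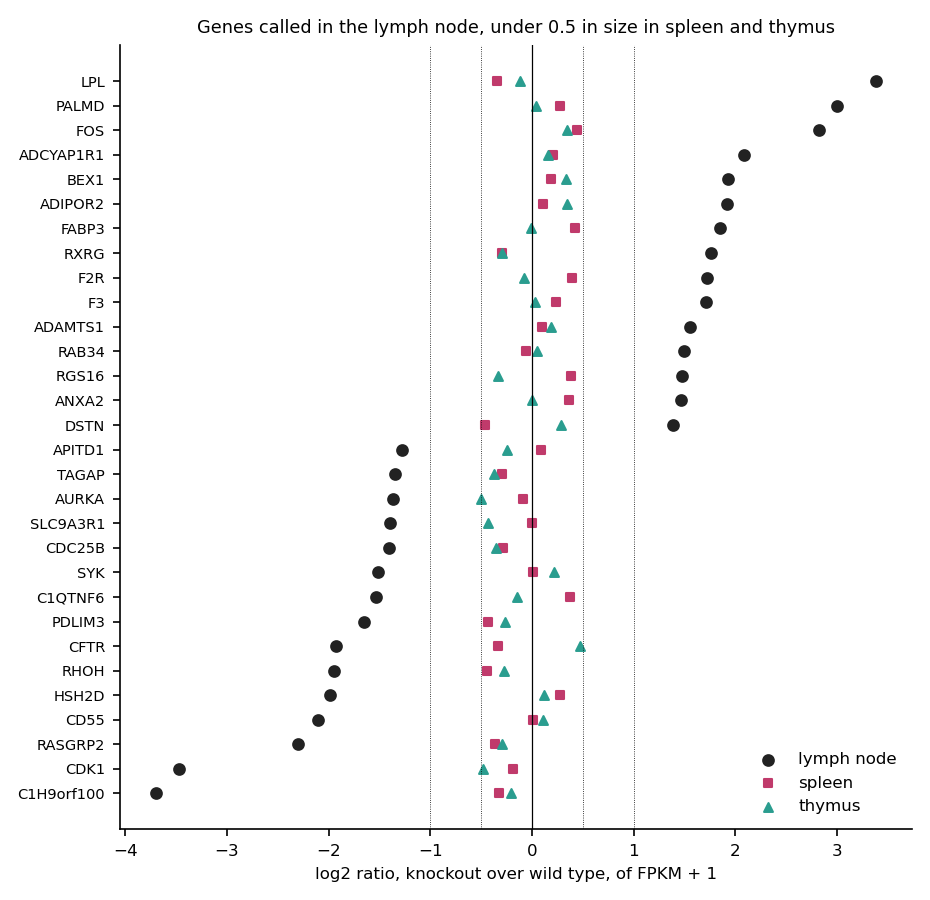
Log2 ratios of knockout over wild type (FPKM + 1) in lymph node (circles), spleen (squares) and thymus (triangles) for the 15 highest and 15 lowest genes called in the lymph node and with log2 ratios under 0.5 in size in both other tissues. Lymph node ratios run from -3.70 for C1H9orf100 to 3.38 for LPL, while the rule keeps all spleen and thymus points between the inner dotted lines.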

How the data were processed

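Total RNA of lymph node, spleen and thymus was extracted with a silica column kit and made into stranded total RNA libraries, per the labels' protocols. The submitters' processing notes name the aligner STAR 2.7.9a, Cufflinks 2.2.1, Trimmomatic 0.39, FastQC 0.11.9 and the build Sscrofa11.1. Settings, annotation, strand and the handling of shared fragments were not given in the sources used here, so genes that overlap or have near-identical copies are uncertain. The authors deposited FPKM values and estimated counts for 4122 genes in separate tables for each tissue. The deposited estimated counts carry 1 factor per library (0.978 and 1.02 in lymph node). After division by it, 99.3% of values in the knockout and 99.2% in the wild-type lymph node were whole within 0.02, and they were rounded to whole fragments. The totals cover listed genes only and are not the depth of the libraries.

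Ratios were taken from FPKM with a pseudocount of 1, and intervals from fragments. The calculations were tested on simulated counts. The pathway and marker lists and the comparison itself were chosen with earlier results of these data known. Named genes are, in each list, up to 5 called members a direction with the largest ratios and members that share their reaction, ligand or receptor, the 15 highest and 15 lowest genes overall and of the set called in the lymph node only, the 10 most abundant, and RAG1 and RAG2. Of the 10 most abundant in each library, NCOA3, CCDC91, GTF2F2 and GPNMB rested on 1 to 4 fragments. FDPS, MMP14, TIMP2, PLIN2, PNPLA2, ABHD5, MGLL, FABP3, CDH13 and SLC6A8 were chosen after their values were seen. A few genes are not reported here. Coordinates are those of the RefSeq annotation of Sscrofa11.1, in which 3721 symbols matched, 225 matched through an older name and 176 did not. Alternatives were pseudocounts of 0.1 and 5, expression minimums, edgeR 4.0.16 and DESeq2 1.42.0 scaling factors, centring on the median, ratios of scaled counts, a threshold of 2 and the counting interval. Python 3.11.15, numpy 2.4.6, pandas 2.3.3, scipy 1.17.1, matplotlib 3.10.9 and R 4.3.3 were used.

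The remaining marker lists had 3 of 6 natural killer and cytotoxic genes higher and 0 lower, 3 of 9 fibroblast genes higher and 1 lower, and 2 of 6 lymphatic and reticular genes higher. Epithelial markers were higher in 1 of 2 cases, mast cell markers in 1 of 2, and Schwann cell markers in 0 of 1, too few genes to describe a cell type. Among all measured genes 15.3% were higher and 10.3% lower.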

Additional observations from a re-analysis of the deposited data

Results flagged for a closer look

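These genes of the lists were called in the lymph node and called in the opposite direction in another tissue, in both cases with a counting interval that left out equal levels. Each tissue has 1 library per genotype, and the difference between tissues was not tested. Values are log2 ratios of knockout over wild type.

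The matrix protein DCN stood at 2.72 in lymph node and -1.39 in spleen, EFEMP1 at 1.30 and -2.16, and the protease ADAMTS20 at 1.67 and -1.86. The droplet protein CIDEC stood at 5.53 and -1.86 on 2, 185, 8 and 1 fragments, and the lipoprotein receptor VLDLR at 1.23 and -1.39. The growth factor PTF-BETA stood at 3.82 and -1.61, and the receptors FGFR2 and KIT at 2.45 and -2.06 and at 1.17 and -1.54. The channel TRPC1 stood at 2.26 and -2.01, with an FPKM ratio in lymph node above its fragment ratio. LCN2, an iron-binding protein of neutrophils, stood at 1.18 and -1.66.

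Among immediate-early genes, BTG2 stood at 1.10 in lymph node and -1.48 in spleen, and NR4A2 at 1.05 and -1.62. NOR-1 stood at 1.42 in lymph node, -1.12 in spleen and -2.52 in thymus. Against the thymus, the Wnt genes DKK3 and SFRP2 stood at 3.38 and -1.07 and at 2.72 and -1.49, the aldolase ALDOC at 2.39 and -1.10, NOS2 at 1.45 and -1.06, and the clock factor ARNTL at 1.35 and -1.58. TNFRSF12A, at 1.68 and -1.78, had 2 and 10 fragments in lymph node.

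In the other direction, the gelatinase MMP9 stood at -3.01 in lymph node and 1.97 in spleen, and the B-cell survival factor TNFSF13B at -1.10 and 1.61. TLR1 and TLR9 stood at -1.07 and -1.01 in lymph node and at 1.17 and 1.15 in thymus.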

How the results depend on the processing

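The counts of higher and lower genes stayed within 1.5 times the reported 446 and 299 in all alternatives but 1. That exception was a threshold of 2, which left 163 higher and 112 lower genes and 4 lists with more lower than higher members, against 7. The largest other change came with a pseudocount of 5 FPKM (299 and 211). Dropping the expression minimum could not change the counts of higher and lower genes. A gene under 1 FPKM in both libraries cannot reach a log2 ratio of 1 once 1 FPKM is added. The scaling alternatives (edgeR and DESeq2 factors, centring, ratios of scaled counts) gave 437 to 452 higher and 297 to 300 lower genes and moved the median of all genes by under 0.1. Higher genes made up 58.6 to 60.3% of calls in each alternative. Allowing up to 1 in spleen and thymus raised the genes called in the lymph node only from 33 to 87 higher and from 25 to 99 lower. Of 351 recomputed list medians 341 stayed within 0.5 and 9 moved further, all of them in the cytochrome P450 and liver-type secreted lists. The remaining 1 turned sign: the median of the growth factor ligands, 0.53 as reported, was -0.35 with no expression minimum, an alternative that adds genes near 0. No paired analysis was possible because each genotype has 1 lymph node library. No library could be left out for the same reason. Tissues were normalised separately, so only ratios within a tissue were set side by side.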
